A study of Mus musculus with 30 samples.

Results

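Pitx1, Foxf1, Foxf2, Foxl1, Nkx2-3, Barx1, Gata6 and Twist1 are 8 transcription factor genes of the gut mesenchyme, chosen by name from the 32316 gene symbols quantified (8 of 32316). Of them, Pitx1 was selected on measured values: its level in the colon against the small intestine in the PDGFRahi and in the Fgfr2+ fibroblasts. Those values are therefore given without a test, as are all members' values in these 2 tissue comparisons. The study measured RNA in bulk from mesenchymal cells sorted out of the lamina propria of the mouse colon and small intestine. There were 10 populations with 3 libraries each, numbered as replicates 1 to 3, from individual untreated C57BL6/Nrj mice 8 to 10 weeks old. The study describes the sorts of both tissues as made from shared mice in 3 experiments and does not say which libraries share a mouse, so populations may not be independent of each other. Dead cells and cells positive for lineage markers, CD31, BP3 or EpCAM or high for NCAM were left out of the sort in every group.

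The colon gave 5 populations: pericytes (PDGFRa-ESAM-1+PDPN-), and, among ESAM-1- cells, CD81+ fibroblasts (PDPNint CD34+ CD90-), CD90+ fibroblasts (CD34+ PDPNhi CD90+), Fgfr2+ fibroblasts (PDPNhi CD34+ CD90-) and PDGFRahi fibroblasts (PDPN+ CD34-). The small intestine gave 5: pericytes by the same gate, smooth muscle cells (PDGFRa-ESAM-1+PDPN+), and, among ESAM-1- cells, CD34+ fibroblasts (PDGFRaint CD34+, labelled as Igfbp5+ and CD81+ fibroblasts together), PDGFRahi fibroblasts (CD34-) and Fgfr2+ fibroblasts (PDGFRaint CD34-). The gates of same-named subsets therefore differ between the tissues. Total counts per library ran from 2245052 (small intestinal Fgfr2+ fibroblasts, replicate 3) to 19096945 (a colonic CD90+ library), with a median of 9601683.

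Mesenchymal cells of the gut wall keep a memory of position along the gut and across its layers, and transcription factors of the homeobox, forkhead, GATA and basic helix-loop-helix families carry much of it. Foxf1, Foxf2 and Foxl1 are forkhead factors of the gut mesenchyme that respond to hedgehog ligands from the epithelium. Nkx2-3 and Barx1 are homeobox factors that pattern intestine and stomach, Pitx1 is a homeobox factor known for specifying hindlimb identity, Gata6 is a zinc finger factor, and Twist1 is a helix-loop-helix factor of mesenchymal development.

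Of the 8 members, 7 passed the filter for testing, at least 6 counts in at least 3 libraries, and Barx1 did not. Levels are in CPM, the usual count unit corrected for library depth, with TMM scaling over all 30 libraries, and are given as mean ± SD of 3 libraries. Levels of different genes are compared in CPM per kilobase. On that scale, averaged over the libraries, Nkx2-3 stood at percentile 95.7 of the 17542 genes tested, Foxf1 at 92.9, Foxf2 at 82.6 and Pitx1 at 64.7. Foxl1 stood at 38.6, Twist1 at 35.0, Gata6 at 2.03 and Barx1 at 0.148. A group whose libraries are all at 0 is compared at a floor of 3 counts per library, and intervals and floors cover counting error only. In sorted bulk samples, fewer cells that express a gene and less of its RNA per cell cannot be told apart.

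Fgfr2 averaged 473 ± 26.4 CPM in the colonic and 1647 ± 291 in the small intestinal Fgfr2+ fibroblasts, the highest of each tissue without overlap, but also 366 ± 65.1 in colonic CD90+ fibroblasts. Thy1, which encodes CD90, averaged 197 CPM in CD90+ fibroblasts, above the other colonic fibroblasts, of which CD81+ had 98.8. It averaged 142 CPM in colonic pericytes and 221 in small intestinal pericytes, the latter above the CD90+ fibroblasts. The 8 pericyte markers summed to 43579 CPM in colonic and 45635 in small intestinal pericytes, led by Rgs5, against 5594 in smooth muscle cells and at most 4109 in fibroblasts. Smooth muscle markers summed to 21470 CPM in the smooth muscle cells, but also to 11849 in colonic and 4690 in small intestinal pericytes. Fibroblast markers summed to between 14775 and 61965 CPM in the fibroblast populations and to 1838 in colonic pericytes, 3225 in small intestinal pericytes and 7810 in smooth muscle cells. PDGFRahi markers were at 10600 and 6357 CPM in the PDGFRahi fibroblasts of small intestine and colon and at most 1484 elsewhere. The CD34+ fibroblast markers were at 12701 CPM in the colonic CD81+ and 10193 in the small intestinal CD34+ fibroblasts, against at most 1980 elsewhere. The 5 genes of the sorting antibodies summed to between 166 CPM (smooth muscle cells) and 6717 CPM (small intestinal PDGFRahi fibroblasts).

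Of the markers of cells outside the gates, several lists were highest in single mural libraries, those of pericytes and smooth muscle cells. Endothelial markers averaged 34.2 to 117 CPM by population and reached 181 in smooth muscle replicate 3, led by Pecam1 at 165. Epithelial markers averaged at most 10.6 CPM by population, with 31.6 in colonic pericyte replicate 2 and 30 in small intestinal pericyte replicate 2, both led by Vil1 and both with Epcam at 0. Haematopoietic markers reached 204 CPM in small intestinal pericyte replicate 1, nearly all Cd79a, and 96.4 in colonic pericyte replicate 2, nearly all Lyz2. Markers of enteric glia and neurons averaged 5.38 to 21.6 CPM and reached 51.6 in colonic pericyte replicate 3, led by Ret. Markers of the interstitial cells of Cajal summed to 798 and 828 CPM in the pericytes of colon and small intestine, led by Ano1, while the defining marker Kit averaged 0.042 and 2.93 CPM there. They summed to 253 and 469 CPM in the PDGFRahi fibroblasts of colon and small intestine, led by Etv1. Mesothelial markers averaged at most 6.70 CPM, and lymphoid stroma markers 6.28 to 25.1. Posterior Hox genes separated the tissues: 5 of them summed to between 55.0 and 153 CPM in the colonic populations and to at most 2.02 in the small intestinal ones. The 5 anterior Hox genes ran the other way, 201 to 482 CPM in the small intestine and 4 to 72.8 in the colon.

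**Figure D1:**
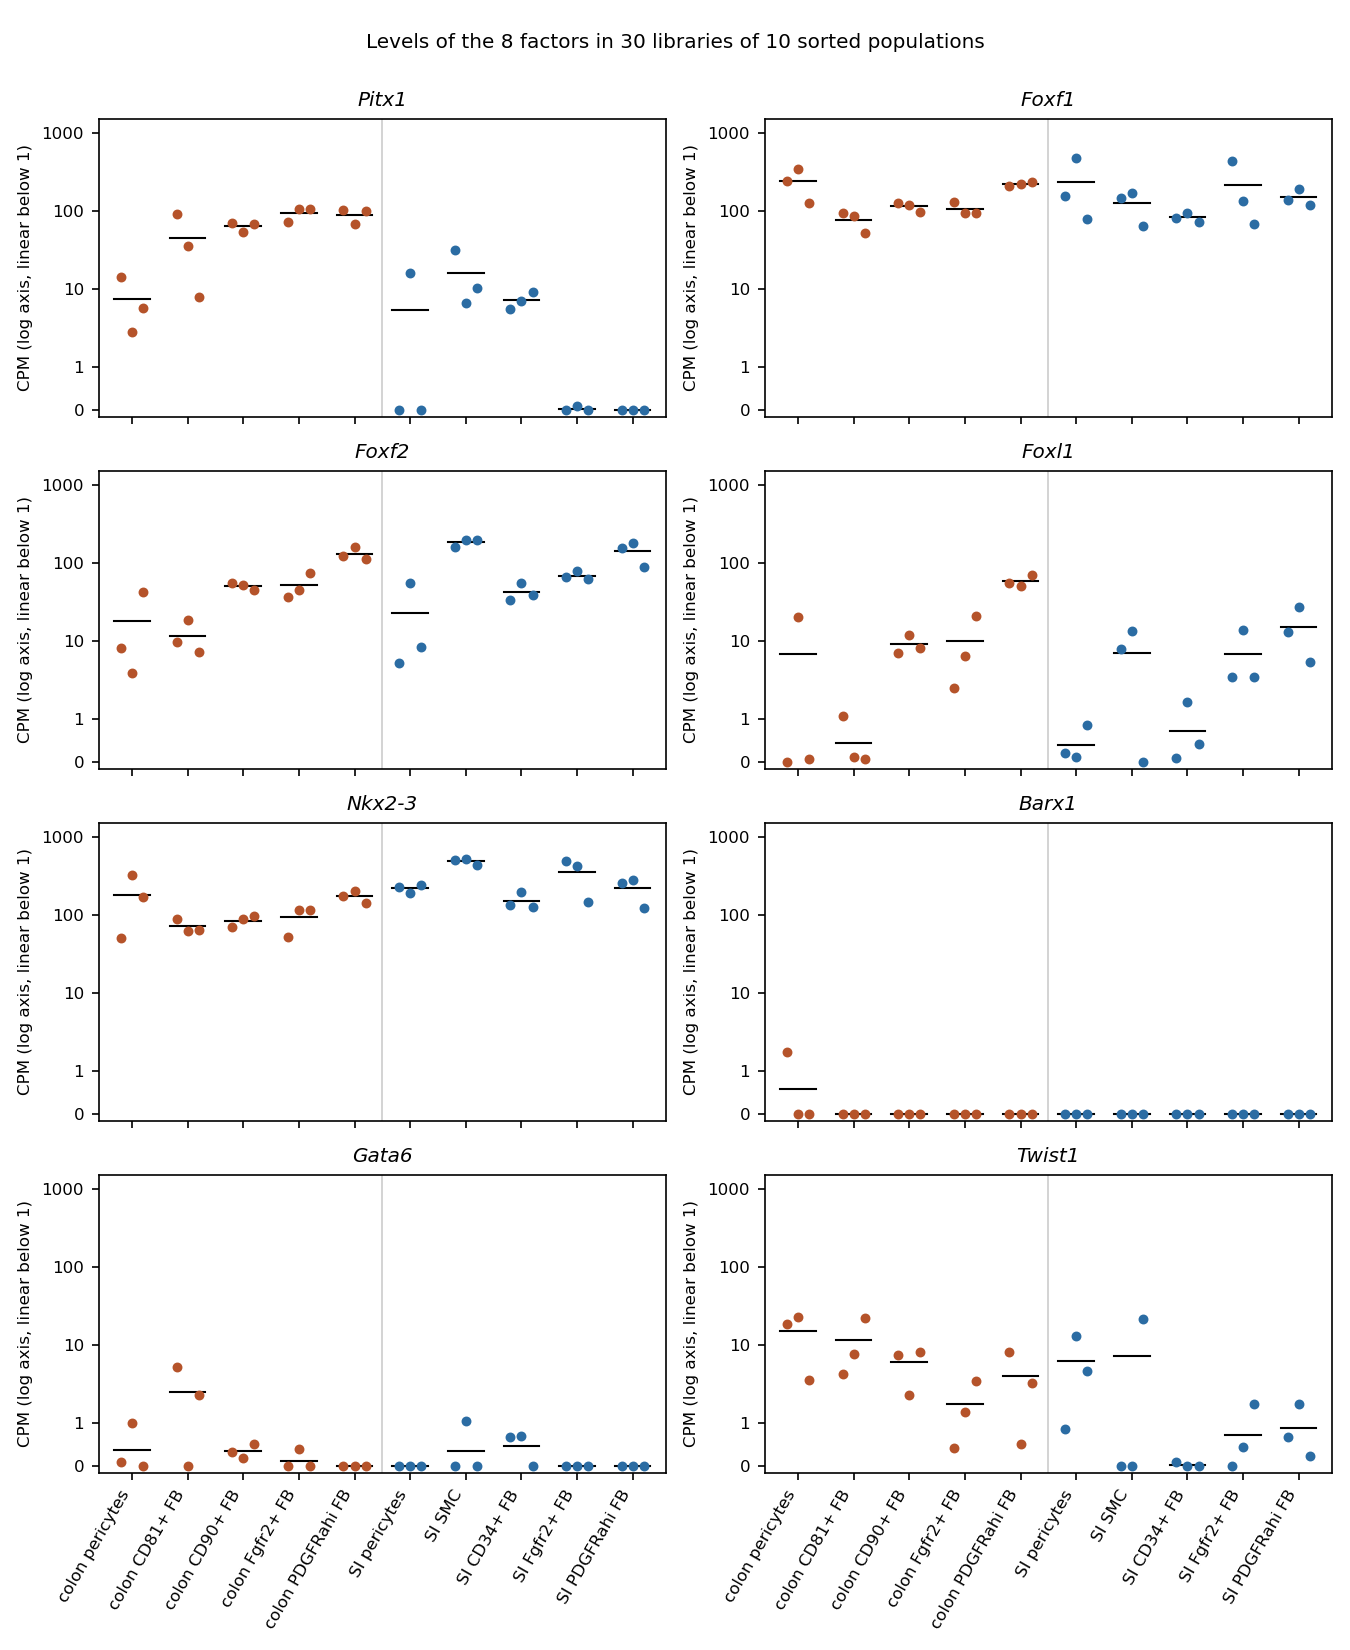
Levels of the 8 members in CPM (vertical axis, linear below 1 and logarithmic above) in each library of the 10 populations, points for libraries and bars for means, orange for colon and blue for small intestine. Nkx2-3, Foxf1 and Foxf2 were counted in every library, and Barx1 in 1 of 30.

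Pitx1 had its highest levels in colonic fibroblasts. It was at 72.2, 104 and 104 CPM in the 3 libraries of colonic Fgfr2+ fibroblasts (93.5 ± 18.5), and at 104, 66.7 and 98.1 in colonic PDGFRahi fibroblasts (89.5 ± 19.9). The same subsets of the small intestine were at or near 0: PDGFRahi fibroblasts had 0 counts in all 3 libraries, and Fgfr2+ fibroblasts 0, 1 and 0 counts. Against the floor, Pitx1 was at least 293-fold higher in the colonic PDGFRahi fibroblasts, and the ratio between the Fgfr2+ populations was 2650 (95% counting interval 475 to 105000). These 4 populations chose Pitx1, and the values describe that choice.

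The other 6 populations, which played no part in the choice, lay between those extremes. Colonic CD90+ fibroblasts had 69.6, 53.2 and 67.1 CPM of Pitx1 (63.3 ± 8.88). Colonic CD81+ fibroblasts were uneven, at 91.1, 35.1 and 7.83 CPM (44.7 ± 42.5), with replicate 3 at the level of the mural cells. In the small intestine, Pitx1 was not absent outside the PDGFRahi and Fgfr2+ subsets: CD34+ fibroblasts had 5.53, 6.88 and 9.24 CPM (7.22 ± 1.88), from 58, 79 and 86 counts. The other 6 small intestinal fibroblast libraries, all below these, are those that chose Pitx1, so that no test is given between them. Smooth muscle cells had 31.6, 6.55 and 10.3 CPM (16.2 ± 13.5). Colonic pericytes had 14, 2.77 and 5.60 CPM (7.45 ± 5.83), and small intestinal pericytes 0, 15.9 and 0 (5.3 ± 9.18), so that replicate 2 held all 126 counts of that population. Ordered by mean, each population overlapped its neighbour, and the ends of the order are the populations that chose Pitx1. Between colonic fibroblasts and the rest the overlap rested on CD81+ replicate 3: the other 11 colonic fibroblast libraries were at 35.1 CPM or more, and the libraries of all other populations at 31.6 or less. On the deposited TPM scale the colonic PDGFRahi fibroblasts came first in place of the Fgfr2+ fibroblasts. In all, 11067 counts fell on Pitx1, with 7 of 30 libraries at 0 and 22 above the floor.

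Between CD34+ fibroblasts of the small intestine and the colonic CD90+ fibroblasts, the groups did not overlap in Pitx1 and the fitted log2 difference was -3.13 (SE 1.16, adjusted p = 0.659, lower in 3 of 3 libraries). With only the 2 compared populations in the fit the value was -3.15 and was called (adjusted p = 9.05e-05, with a range of 9.05e-05 to 1 over all alternatives). That fit also called more of all genes, with its count given under the dependence on processing. Against the colonic CD81+ fibroblasts the difference was -2.63 (SE 1.14, adjusted p = 0.446) and the groups overlapped. Between the pericytes of the tissues it was -0.47 (adjusted p = 0.852) with all libraries. It was 0.35 without colonic pericyte replicate 1, and 0.08 and 0.11 without small intestinal pericyte replicates 1 and 3. Without small intestinal pericyte replicate 2 the fit gave -9.33 (adjusted p = 0.00214, range over alternatives 0.00214 to 1). The small intestinal pericyte libraries left there had 0 counts, so that this value depends on the prior count and gives no fold. Small intestinal pericyte replicate 2 also decided smooth muscle cells against pericytes, 1.59 (SE 1.11, adjusted p = 0.382) with it and a fitted 10.45 (adjusted p = 0.000152, range 0.000152 to 0.8) without it. The latter again rests on pericyte libraries at 0 counts and gives no fold. In replicate 2 the epithelial marker sum was 30 CPM and the fibroblast marker sum 3089 CPM. The lymphoid stroma marker sum was 52.4 CPM, led by Cr2 at 31.1, the posterior Hox sum 0.379 CPM and the anterior Hox sum 418. Their part in the Pitx1 count was not tested.

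Isl1, a LIM homeobox factor from the list of regional factors, was the second gene most like Pitx1 by Spearman's rho over the 30 libraries (0.796), which share sort, depth and normalisation. By Pearson's r Isl1 was at place 6 over the libraries (0.754) and at place 23 over the population means (0.843). It was at 49.8, 56.0 and 25.9 CPM in colonic CD90+ fibroblasts (43.9 ± 15.9) and at 36.7, 29.8 and 33.2 in Fgfr2+ fibroblasts (33.2 ± 3.42). In colonic PDGFRahi fibroblasts it was at 13.5, 14.4 and 16.0 CPM (14.6 ± 1.28), so that Isl1, unlike Pitx1, was lower in these than in the other 2 subsets with no overlap. Isl1 was not counted in any library of the small intestinal PDGFRahi fibroblasts, at least 48.0-fold lower than in the colon. In the Fgfr2+ fibroblasts the ratio of colon to small intestine was 938 (168 to 37100). Between colonic CD90+ and small intestinal CD34+ fibroblasts it was 1400 (251 to 55200). Isl1 is given here for its likeness to Pitx1 over these same libraries, and these values are a description. Isl1 averaged 0.0358 CPM in the CD34+ fibroblasts, where Pitx1 averaged 7.22.

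**Figure D2:**
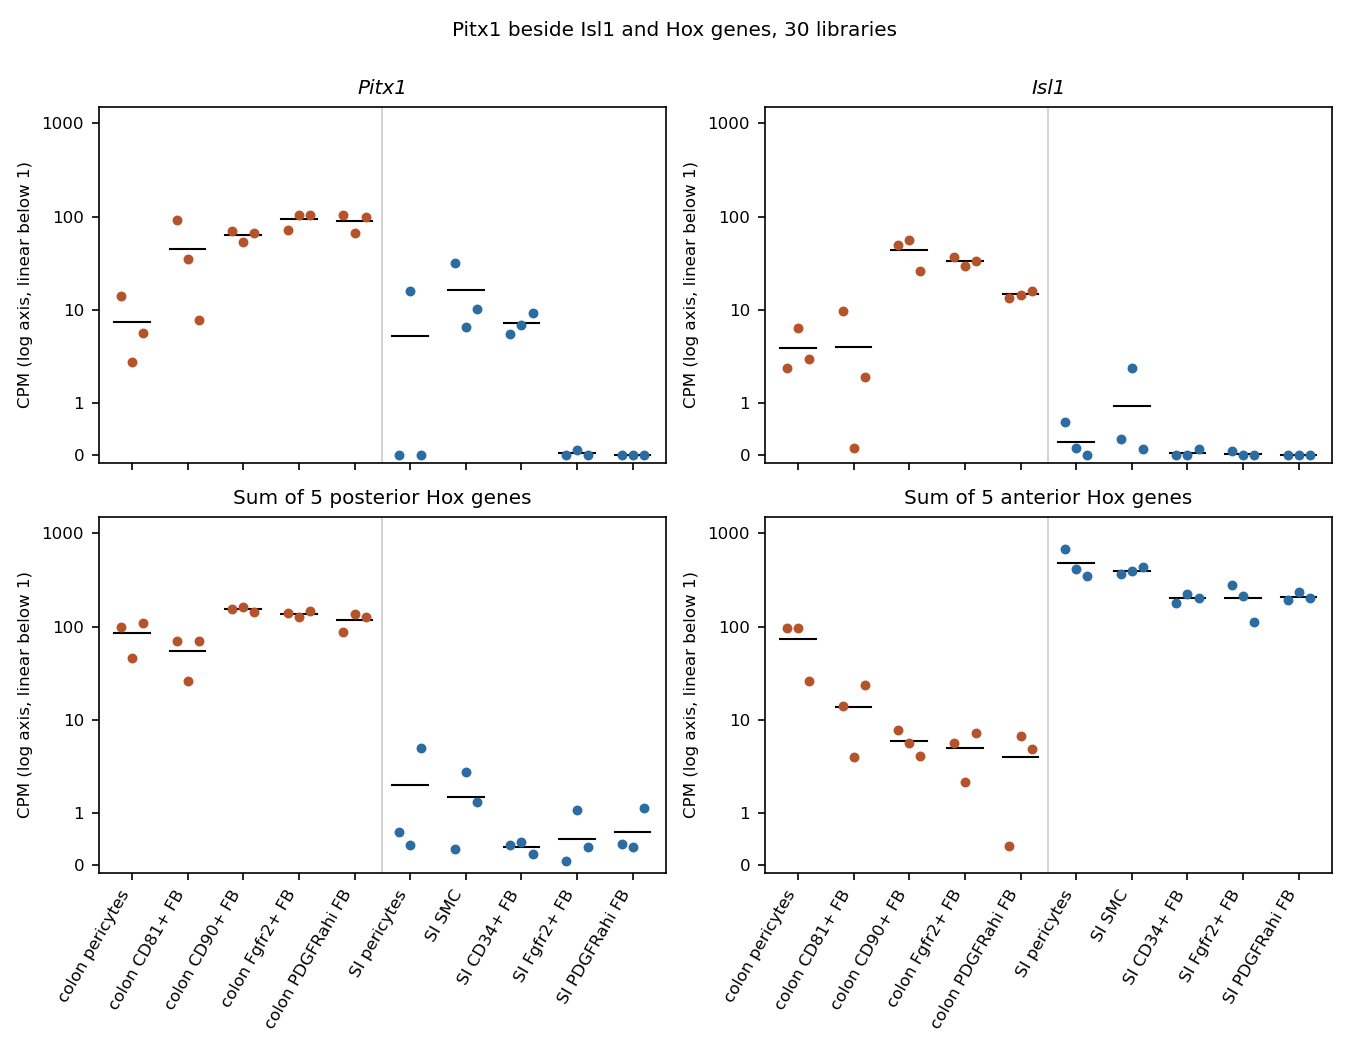
Pitx1, Isl1, the sum of 5 posterior Hox genes and the sum of 5 anterior Hox genes in CPM (vertical axes) in each library, points for libraries and bars for means, orange for colon and blue for small intestine. Posterior Hox sums averaged 55.0 CPM or more in each colonic population, while Pitx1 averaged 7.45 in colonic pericytes and 93.5 in colonic Fgfr2+ fibroblasts.

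Among 15037 other genes with a mean of at least 1 CPM, Postn, which encodes the matrix protein periostin, was the gene most like Pitx1 by all 3 measures used: Pearson's r of log2 CPM 0.863 and Spearman's rho 0.821 over the 30 libraries, and r 0.944 over the 10 population means. Postn averaged 7954 ± 370 CPM in colonic CD90+ fibroblasts and 6728 ± 1136 in colonic Fgfr2+ fibroblasts. Among the small intestinal fibroblasts it was also highest in the CD34+ population, with 785 ± 268 CPM, 134 ± 47.5 in the Fgfr2+ and 29.7 ± 13.5 in the PDGFRahi fibroblasts. In smooth muscle cells it was at 1831 ± 636 CPM. Cldn1 (0.783) and Pycr1 (0.781) came next by Pearson's r. The points share library depth and sorting, and the order of likeness is a description.

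Foxf1, a forkhead factor required for the splanchnic mesenchyme, was counted in every library, with between 195 and 6225 counts. Colonic PDGFRahi fibroblasts had 211, 219 and 231 CPM (220 ± 10.2), the tightest of the high populations. Colonic pericytes had 241, 346 and 126 CPM (238 ± 110) and small intestinal pericytes 154, 472 and 78.6 (235 ± 209), the highest means but with a wide spread. The small intestinal Fgfr2+ fibroblasts were as uneven, at 434, 135 and 67.5 CPM (212 ± 195). The lowest were small intestinal CD34+ fibroblasts at 81.1, 92.4 and 72.5 CPM (82.0 ± 10.0) and colonic CD81+ fibroblasts at 92.8, 85.4 and 51.8 (76.6 ± 21.8). From the lowest to the highest mean the fold was 3.1. In between lay small intestinal PDGFRahi fibroblasts (150 ± 36.7), smooth muscle cells (126 ± 54.8), colonic CD90+ (114 ± 14.5) and colonic Fgfr2+ fibroblasts (106 ± 19.5). Ordered by mean, the only neighbours that did not overlap were colonic Fgfr2+ and small intestinal CD34+ fibroblasts. This order depended on the scale: in deposited TPM 8 of 10 populations had another place, with colonic PDGFRahi fibroblasts highest (122 ± 5.43), small intestinal pericytes at 74.3 ± 58.4 and small intestinal CD34+ fibroblasts lowest (30 ± 2.66). TPM share a fixed sum, of which a single transcript held between 14.8% and 55.9% per library, with 53.8% or more in each CD34+ library, and the part of this in the TPM order was not tested.

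Foxf2, the paralog of Foxf1, varied over a 15.6-fold range of means and split the populations more clearly. Smooth muscle cells were highest at 158, 194 and 194 CPM (182 ± 21.2). The PDGFRahi fibroblasts of both tissues followed, with 156, 182 and 88.2 CPM in the small intestine (142 ± 48.3) and 120, 160 and 113 in the colon (131 ± 25.1). All 9 of these libraries lay above the other 21. Small intestinal Fgfr2+ fibroblasts were at 66.2, 77.4 and 61.6 CPM (68.4 ± 8.11), colonic Fgfr2+ at 36.2, 44.7 and 74.8 (51.9 ± 20.3) and colonic CD90+ at 54.5, 51.8 and 45.2 (50.5 ± 4.76). Small intestinal CD34+ fibroblasts were at 33.0, 54.3 and 38.9 CPM (42.0 ± 11). In this order each of these 4 populations overlapped the next. Pericytes were low in 2 of 3 libraries of each tissue, with 8.17, 3.91 and 41.7 CPM in the colon (17.9 ± 20.7) and 5.15, 54.5 and 8.24 in the small intestine (22.6 ± 27.7). Colonic CD81+ fibroblasts were lowest, at 9.52, 18.3 and 7.16 CPM (11.7 ± 5.86).

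Per kilobase, the ratio of Foxf1 to Foxf2 differed between populations, with wide ranges in some. Its median over 3 libraries was 0.855 in smooth muscle cells (range 0.325 to 0.891) and 1.02 in small intestinal PDGFRahi fibroblasts (0.871 to 1.32). It was 2.23 in colonic CD90+ (2.1 to 2.25), 2.07 in colonic Fgfr2+ (1.24 to 3.47), 1.82 in small intestinal CD34+ (1.66 to 2.40) and 1.71 in colonic PDGFRahi fibroblasts (1.34 to 2.00). Small intestinal Fgfr2+ fibroblasts were at 1.70 (1.07 to 6.41), with the highest library inside the range of the CD81+ fibroblasts. Colonic CD81+ fibroblasts were at 7.03 (4.55 to 9.49), small intestinal pericytes at 9.28 (8.46 to 28.7) and colonic pericytes at 28.6 (2.95 to 86.0). Smooth muscle cells were thus the only population with more Foxf2 than Foxf1 in all 3 libraries, and no CD81+ or small intestinal pericyte library was below 4.55. Colonic pericyte replicate 3, with a ratio of 2.95 and 581 counts of Foxf2 against 76 and 31, stood apart from the other 2.

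**Figure D3:**
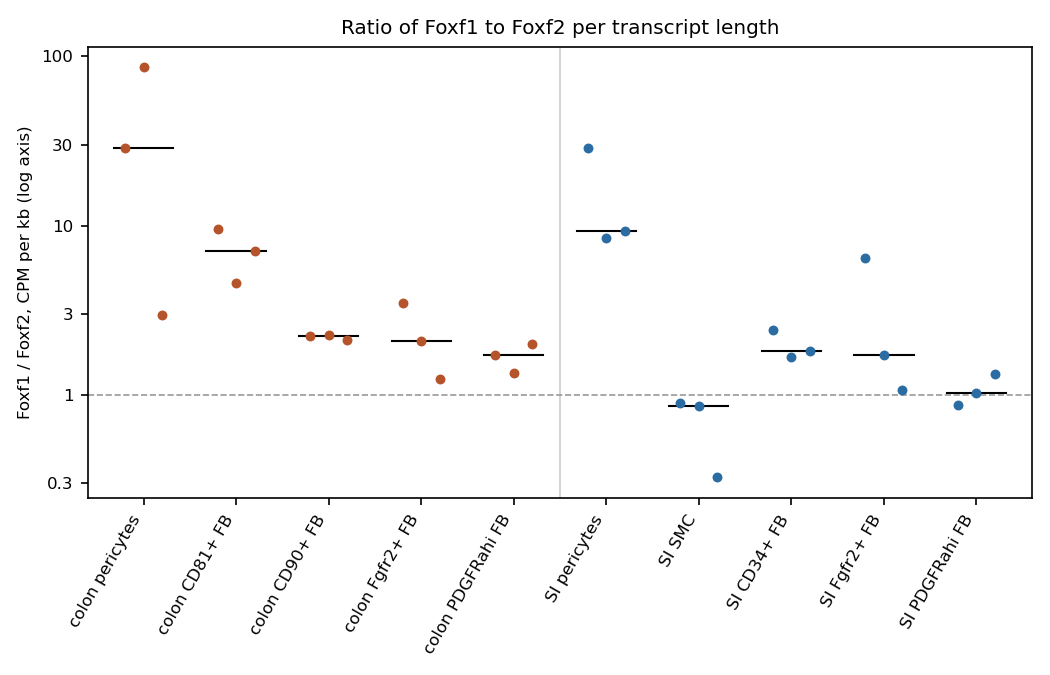
Ratio of Foxf1 to Foxf2 in CPM per kilobase (vertical axis, logarithmic) in each library of the 10 populations, points for libraries and bars for medians, with a dashed line at 1. Medians run from 0.855 in smooth muscle cells to 28.6 in colonic pericytes.

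Foxf1 (chr8:121084386-121088144, plus strand) and Foxf2 (chr13:31625816-31631403, plus strand) share stretches of sequence. Of the 31-base words of their transcripts, 0.503% of those of Foxf1 and 1.29% of those of Foxf2 also occur in another gene's transcripts, against 0.288% for Nkx2-3, 2.39% for Foxl1 and 0 for the other 4 members. The longest run they share is 41 bases in the first coding exon of each, in the forkhead domain. The runs are shown with 20 bases on each side, plus strand of GRCm38, because the 31-base words inside the shared run fit both genes; capitals mark the shared bases.
Foxf1, chr8:121084637-121084717: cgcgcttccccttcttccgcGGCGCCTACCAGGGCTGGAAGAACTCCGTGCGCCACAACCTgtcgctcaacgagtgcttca
Foxf2, chr13:31626474-31626554: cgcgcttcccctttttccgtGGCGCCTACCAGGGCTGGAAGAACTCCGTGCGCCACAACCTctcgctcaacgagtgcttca

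Foxl1, a forkhead factor that marks subepithelial cells next to the crypt, was highest in the colonic PDGFRahi fibroblasts at 54.6, 50.8 and 70.7 CPM (58.7 ± 10.5), above every library of every other population. Small intestinal PDGFRahi fibroblasts came second at 12.9, 27.1 and 5.28 CPM (15.1 ± 11.1). Both subsets also held the most Bmp5, the gene most like Foxl1 by Pearson's r over 30 libraries (0.8) and the second by Spearman's rho (0.766) and by population means (0.943), at 2409 ± 215 and 2396 ± 237 CPM. Bmp5 was thus alike in the tissues where Foxl1 was not. Nrg1 (0.794) and Mchr1 (0.780) came next by Pearson's r, and Mchr1 was first by rho (0.787). From second place on, the populations of Foxl1 overlapped their neighbours in order. Colonic Fgfr2+ fibroblasts averaged 9.93 CPM, colonic CD90+ 9.04, smooth muscle cells 7, small intestinal Fgfr2+ 6.87 and colonic pericytes 6.74. The last of these rested on replicate 2, with 160 counts against 0 and 1. CD34+ fibroblasts (0.727 CPM), CD81+ fibroblasts (0.434) and small intestinal pericytes (0.401) were lowest. The fold from lowest to highest mean was 147, but the lowest mean came from 1, 1 and 7 counts, so that its size is uncertain.

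Nkx2-3, a homeobox factor needed for gut and spleen mesenchyme, was the member with the highest level per kilobase, with at least 427 counts in every library. Smooth muscle cells had 508, 514 and 440 CPM (487 ± 41.2). Small intestinal Fgfr2+ fibroblasts had 495, 427 and 148 CPM (357 ± 184), overlapping them. Small intestinal PDGFRahi fibroblasts were at 257, 276 and 124 CPM (219 ± 83.0), small intestinal pericytes at 226, 192 and 241 (219 ± 25.2) and small intestinal CD34+ fibroblasts at 132, 195 and 127 (151 ± 38.0). The colonic populations were mostly lower: pericytes at 50.8, 325 and 168 CPM (181 ± 138), PDGFRahi fibroblasts at 175, 200 and 143 (173 ± 28.3) and Fgfr2+ fibroblasts at 51.8, 115 and 115 (94.0 ± 36.6). CD90+ fibroblasts had 69.4, 88.4 and 95.4 CPM (84.4 ± 13.5), and CD81+ fibroblasts, the lowest, 88.3, 61.9 and 62.9 (71.0 ± 15.0). The order broke once, with all 9 libraries of the colonic Fgfr2+, CD90+ and CD81+ fibroblasts below the CD34+ fibroblasts of the small intestine. The fold from lowest to highest mean was 6.86. In deposited TPM 6 of 10 populations had another place. There the colonic Fgfr2+ and the CD34+ fibroblasts overlapped, with colonic Fgfr2+ replicate 2 at 66.7 and CD34+ replicate 1 at 53.1. Shroom3, a regulator of apical cytoskeleton, was the gene most like Nkx2-3 over 30 libraries (r 0.750, rho 0.768), though not by population means, with 270 ± 14.9 CPM in smooth muscle cells, 240 in small intestinal pericytes and 14.1 in colonic CD90+ fibroblasts. Slamf8 (0.737) and Hoxc6 (0.720) came next.

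Foxf2 and Nkx2-3 shared smooth muscle cells as their highest population, and their promoter windows are shown for that reason. RefSeq windows of GRCm38.p6 were found for 4 of the 8 members, Foxf2, Nkx2-3, Barx1 and Twist1; the 250 bases before the annotated start are given. Capitals mark the GC box, GGGCGG or CCGCCC on the other strand, which 32.7% of all 32851 windows hold and all 4 members' windows hold.
Foxf2, chr13:31625566-31625815: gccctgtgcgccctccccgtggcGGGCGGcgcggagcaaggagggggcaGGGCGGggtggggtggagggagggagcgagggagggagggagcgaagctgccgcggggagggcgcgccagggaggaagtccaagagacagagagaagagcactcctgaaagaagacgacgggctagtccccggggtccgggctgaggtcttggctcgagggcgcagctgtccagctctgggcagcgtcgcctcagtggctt
Nkx2-3, chr19:43612075-43612324: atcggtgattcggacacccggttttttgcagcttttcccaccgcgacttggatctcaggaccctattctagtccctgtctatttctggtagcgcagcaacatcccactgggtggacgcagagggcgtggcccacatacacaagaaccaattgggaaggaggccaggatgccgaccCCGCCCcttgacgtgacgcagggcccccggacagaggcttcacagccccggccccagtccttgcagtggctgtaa

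The windows were also rich in G and C: 85.6% in Barx1, 71.6% in Foxf2, 62.4% in Twist1 and 60% in Nkx2-3, against a median of 52.4% over all windows. Barx1 had 8 GC boxes and Foxf2 had 2. A TATA box (TATAAA, either strand, in 12.4% of windows) was present in Twist1. The letters searched for the members' own families, GTAAACA for forkhead (3.17% of windows), AGATAA for GATA (9.99%), TAATCC for Pitx (6.25%), CACTTG for the NK2 class (11.6%) and CATATG for Twist (3.46%), each on both strands, are not in these 4 windows.

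Twist1, a helix-loop-helix factor of mesenchymal development, was scarce, with 1701 counts in all and 5 libraries at 0. Colonic pericytes had 18.6, 22.9 and 3.52 CPM (15.0 ± 10.2), the highest mean, and colonic CD81+ fibroblasts 54, 121 and 267 counts (11.4 ± 9.57 CPM). Smooth muscle cells had 0, 0 and 194 counts, so that 1 library made their mean of 7.12 ± 12.3 CPM. Small intestinal pericytes had 0.859, 13.0 and 4.55 CPM (6.14 ± 6.23), and colonic CD90+ fibroblasts averaged 5.98 CPM, PDGFRahi 3.99 and Fgfr2+ 1.74. The small intestinal fibroblasts were lowest, with 5, 31 and 2 counts in PDGFRahi, 0, 5 and 5 in Fgfr2+ and 1, 0 and 0 in CD34+ fibroblasts. All neighbours in this order overlapped. Sertad1 (r 0.679), Sept5 (0.656) and Lrrc8c (0.656) were the genes most like Twist1 by Pearson's r, and at these counts the likeness is weak.

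Gata6, an endodermal and mesodermal zinc finger factor, had 151 counts in all, with 19 of 30 libraries at 0 and 9 above the floor. The CD81+ fibroblasts of the colon held 67, 0 and 27 of them (2.49 ± 2.62 CPM), and no other library exceeded 11 counts. Its differences could not be read at these counts, and its most like genes, Kif21a (0.781), BC064078 (0.699) and Fam131b (0.692), describe sparse counts. Gata4, a relative of Gata6 chosen after its values were seen, reached at most 4.58 CPM in a population. Barx1, a homeobox factor of the stomach mesenchyme, had 16 counts in colonic pericyte replicate 1 and 0 in the other 29 libraries, so that no difference between populations could be read.

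The subset comparison asked how PDGFRahi fibroblasts differ from Fgfr2+ fibroblasts within a tissue. Among the members other than Pitx1, Foxf2, Foxl1, Nkx2-3 and Foxf1 were each higher in the colonic PDGFRahi fibroblasts without overlap, with fitted log2 differences of 1.34 (SE 0.67), 2.56 (SE 1.51), 0.88 (SE 0.47) and 1.05 (SE 0.54), and adjusted p of 0.620, 0.747, 0.669 and 0.641. In the small intestine Foxf2 did not overlap (1.05, SE 0.67, adjusted p = 0.566, higher in 3 of 3 libraries), while Foxf1 was at -0.51 (adjusted p = 0.792) and Nkx2-3 at -0.70 (adjusted p = 0.585), both overlapping, and Foxf1 was at 0.56 without Fgfr2+ replicate 1. Called means an adjusted p under 0.05 and an absolute log2 difference over 1.5. By edgeR 0 of 6 members were called in either tissue, 0 at an unadjusted p under 0.05 and 0 by DESeq2, read here and below for members other than Gata6, while 2.53% of all genes were called in the small intestinal comparison (12.5% unadjusted, 5.24% by DESeq2) and 1.35% in the colonic one (8.57% and 2.73%). Without overlap were 1 of 6 small intestinal members beside 18.4% of all genes, and 4 of 6 colonic ones beside 17.4%. The difference between the tissues' subset effects was -1.56 for Foxf1 (SE 0.77, adjusted p = 0.638), -1.58 for Nkx2-3 (SE 0.66, adjusted p = 0.489) and -0.28 for Foxf2 (adjusted p = 1). There too 0 of 6 members were called by edgeR, 1 (Nkx2-3) was under 0.05 unadjusted and 0 were called by DESeq2, beside 0.661% of all genes, with 7.86% unadjusted and 2.11% by DESeq2. With only the compared populations in the fit, Foxl1 in the colon was called (2.6, adjusted p = 0.0453, range over alternatives 0.0453 to 1). That fit also called more of all genes than the 236 of the fit of all populations, with its count given under the dependence on processing. The all-gene count in the colon, 236, was 137, 144 or 129 without 1 of the PDGFRahi replicates 1 to 3 and 150 without Fgfr2+ replicate 3. That of the tissue difference, 116, was 65, 70 or 63 without 1 of these PDGFRahi replicates, 63 without colonic Fgfr2+ replicate 3, and 73 or 75 without small intestinal PDGFRahi replicate 1 or 2.

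Some genes of the fixed lists differed between the subsets. Among 29 mesenchymal factors in the small intestine, 2 were higher and 2 lower in PDGFRahi fibroblasts (13.8% called, 2.53% of all genes; median log2 difference -0.28, 0.01 over all genes). The repressors Zeb1 and Zeb2 went opposite ways: Zeb1 averaged 707 against 76.7 CPM (3.2, SE 0.33, adjusted p = 2.27e-07, higher in 3 of 3 libraries) and Zeb2 124 against 2295 CPM (-4.21, SE 0.26, adjusted p = 2.19e-11, lower in 3 of 3). Zeb2 was also lower in the colon, 373 against 1943 CPM (-2.38, SE 0.24, adjusted p = 5.38e-07), and the tissues differed in this effect by -1.83 (SE 0.33, adjusted p = 0.00423). Snai2, another repressor of that group, was lower in the small intestine (7.04 against 94.7 CPM, -3.76, SE 0.53, adjusted p = 3.34e-05). Of 11 hedgehog genes, which act above Foxf1, Foxf2 and Foxl1, 2 were lower in the small intestine (18.2%). Of 14 smooth muscle factors 3 were lower (21.4%), among them the coactivator Myocd (1.15 against 81.6 CPM, -6.10, SE 1.09, adjusted p = 0.000896). Of 30 regional factors 3 were higher (10%). Of 27 forkhead genes edgeR called 0, 2 were under 0.05 unadjusted (12.5% of all genes) and DESeq2 called 0 (5.24% of all genes). In the colon, 2 regional factors (6.67%) and 1 gene of each other list (3.45% to 9.09%) were lower, beside 1.35% of all genes, and of the latter Zeb2 kept its call with each library left out.

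The pericyte comparison asked how pericytes differ from the fibroblasts of their tissue, taken as the mean of the fibroblast populations. The fit averages these populations on the log2 scale, here and for smooth muscle cells against fibroblasts. The CPM given for fibroblasts are averaged without logs, so that a fitted difference need not match the ratio of the CPM. In the small intestine, Foxf2 fell by 1.71 on the log2 scale (SE 0.61, adjusted p = 0.0459) and Twist1 rose by 4.39 (SE 1.23, adjusted p = 0.0115). Both overlapped with the fibroblast libraries, and a fitted value against populations near 0 depends on the prior count. These were 2 of 6 members, against 16.6% of all genes (20.6% by DESeq2, which called 3 members). Small intestinal pericyte replicate 2 pulled in both directions: without it Foxf2 was at -3.46 (adjusted p = 0.000534, range over alternatives 0.000534 to 0.198), Twist1 at 3.23 (adjusted p = 0.1, range 0.00331 to 0.1) and Foxf1 at -0.24. Foxf2 lost its call without replicate 1 (-1.27, adjusted p = 0.198) and without replicate 3 (-1.31, adjusted p = 0.164), and, with each of the 12 libraries left out in turn, was called in 3 of 12. The other fits that lost it left out CD34+ replicates 2 or 3 (-1.66 and -1.76), PDGFRahi replicates 1 or 2 (-1.68 and -1.64) or Fgfr2+ replicates 1, 2 or 3 (-1.71, -1.67 and -1.73), with adjusted p of at most 0.0681. Nkx2-3 was at -0.05 (adjusted p = 0.984, between -0.18 and 0.05 with each library left out), Foxf1 at 0.77 (adjusted p = 0.207) and Foxl1 at -3.33 (adjusted p = 0.129), the last called by DESeq2 (adjusted p = 0.0311, range over alternatives 0.0311 to 0.281).

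In the colon, Foxf1 stood at 0.99 above the fibroblasts (SE 0.40, adjusted p = 0.0832), Nkx2-3 at 0.87 (adjusted p = 0.0799), Foxf2 at -1.31 (SE 0.58, adjusted p = 0.116) and Twist1 at 1.68 (adjusted p = 0.314). By edgeR 0 of 6 members were called, 3 were under 0.05 unadjusted and 0 were called by DESeq2, beside 16% of all genes, with 31.4% unadjusted and 18.6% by DESeq2. Single libraries decided 2 of them: Foxf2 was at -2.88 (adjusted p = 0.00306, range over alternatives 0.00306 to 0.401) without colonic pericyte replicate 3, and Foxl1, at -0.05 with all libraries, at -7.05 (adjusted p = 0.011, range 0.011 to 1) without replicate 2. Averaged in CPM without logs, Foxl1 was lower in colonic pericytes than in the fibroblasts, at 6.74 against 19.5. Without replicate 2 its pericyte counts were 0 and 1, so that -7.05 depends on the prior count. In replicate 3 the markers of glia and neurons summed to 51.6 CPM and the fibroblast markers to 1876, and in replicate 2 the epithelial markers summed to 31.6 and the fibroblast markers to 1884. Their part in these values was not tested. Between the pericytes of the tissues, Foxl1 was at -3.98 (adjusted p = 0.146) and Twist1 at -1.28 (adjusted p = 0.661), small intestine minus colon, and Foxl1 was at 2.98 without colonic pericyte replicate 2. The Foxl1 counts left then were 0 and 1 in colonic and 1, 1 and 7 in small intestinal pericytes, so that 2.98 depends on the prior count and gives no fold. Between the pericytes of the tissues 0 of 7 members were called by edgeR, 1 was under 0.05 unadjusted and 1 (Foxl1, -4.05, adjusted p = 0.0408, range over alternatives 0.0408 to 0.355) was called by DESeq2, beside 5.72% of all genes, with 24.1% unadjusted and 13.7% by DESeq2. That all-gene count, 1003, was 616 without small intestinal pericyte replicate 1, 1711 without replicate 3 and, by edgeR fitted to these 2 populations alone, 0.

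Of the fixed lists, some had shares of called genes near those of all genes, 16.6% (small intestine) and 16% (colon). Among 27 tested forkhead genes, 4 were higher and 1 lower in small intestinal pericytes (18.5%), and 3 higher in colonic ones (11.1%). Foxs1 was higher in both, at 65.8 against 1.91 CPM (5.98, SE 1.03, adjusted p = 0.000186) and at 22.5 against 0.0715 CPM (9.74, SE 1.11, adjusted p = 6.30e-07), in 3 of 3 libraries each. Foxc1, a forkhead factor of vascular development, was at 59.2 against 0.179 CPM in the colon (8.63, SE 0.92, adjusted p = 3.57e-08). Among 30 regional factors 7 were higher and 3 lower in the small intestine (33.3%) and 4 higher and 4 lower in the colon (26.7%), with Bnc2 lower in both (-3.76 and -4.65, adjusted p = 6.94e-08 and 2.20e-09). Among 29 mesenchymal factors the counts were 6 and 3 (31%), then 7 and 5 (41.4%), with Ebf2 at 223 against 1.13 CPM in the small intestine (7.82, SE 0.58, adjusted p = 4.24e-11). Of 14 smooth muscle factors 6 were higher in the small intestine (42.9%, median 1.37, -0.02 over all genes) and 7 in the colon (50%, median 1.47, 0.01 over all genes), among them the Notch target Hey2 in both (10.11 and 9.80, adjusted p = 2.34e-09 and 1.14e-10). Of 11 hedgehog genes 2 were higher and 1 lower in the small intestine (27.3%), and 1 higher and 4 lower in the colon (45.5%).

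The smooth muscle comparisons asked how ESAM-1+PDPN+ cells of the small intestine differ from pericytes and from fibroblasts. Foxf2 was the clearest difference of a member: smooth muscle cells had 1495, 2019 and 1767 counts and small intestinal pericytes 24, 432 and 67. Every smooth muscle library lay above every pericyte library, and the log2 difference was 3.00 (SE 0.72, adjusted p = 0.00566, higher in 3 of 3). Foxf2 was 1 of 7 members called, beside 10.1% of all genes (16.8% by DESeq2, which called 2 members), and the call held with each of the 6 libraries left out in turn, while a fit of only the 2 populations gave 3.04 (adjusted p = 0.129, range over alternatives 8.72e-05 to 0.129). Nkx2-3 did not overlap either (1.15, SE 0.47, adjusted p = 0.111, higher in 3 of 3), which made 2 of 7 members without overlap, beside 18.1% of all genes. Foxl1 was at 4.05 (adjusted p = 0.122) and was called by DESeq2 (4.08, adjusted p = 0.0324, range over alternatives 0.0324 to 0.401). Twist1 was at 0.21 (adjusted p = 0.979), at -0.23 without pericyte replicate 1, and at -9.02 (adjusted p = 0.0186, range over alternatives 0.0186 to 1) without smooth muscle replicate 3. The smooth muscle libraries left there had 0 counts, so that -9.02 depends on the prior count and gives no fold.

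Against the fibroblasts of the small intestine, Foxf2 was at 1.3 (SE 0.51, adjusted p = 0.148) and Nkx2-3 at 1.1 (SE 0.36, adjusted p = 0.0642) in smooth muscle cells. Twist1 rose by 4.6 (SE 1.23, adjusted p = 0.0186), 1 of 6 members beside 5.16% of all genes, but it was at 0 in 2 of 3 smooth muscle libraries. Against fibroblasts near 0 the value of 4.6 depends on the prior count. With the replicate number in the model Twist1 was at 3.86 (adjusted p = 0.135). Without smooth muscle replicate 3 the fit gave -4.66 (adjusted p = 0.451, range over alternatives 0.00426 to 0.451), which depends on the prior count and gives no fold. That replicate, with 181 CPM of endothelial markers led by Pecam1 and with 10342 CPM of fibroblast markers, also had 0 counts of Foxl1 where the other 2 had 74 and 137, and the part of those cells was not tested. Without it the all-gene count fell from 906 to 530.

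In smooth muscle cells, where Foxf2 and Nkx2-3 had their highest levels, 5 of 11 hedgehog genes were higher than in fibroblasts (45.5%, beside 5.16% of all genes; median log2 difference 1.56, -0.04 over all genes) and 3 of 11 than in pericytes (27.3%, beside 10.1% of all genes; median 0.97, 0 over all genes). The hedgehog antagonist Hhip averaged 3454 CPM in smooth muscle cells and 25.9 in fibroblasts (7.99, SE 0.42, adjusted p = 1.55e-13, higher in 3 of 3), and the coreceptor Gas1 200 against 14.5 CPM (4.91, SE 0.68, adjusted p = 9.65e-06). Of 14 smooth muscle factors 3 were higher and 1 lower than in fibroblasts (28.6%), and 2 higher and 3 lower than in pericytes (35.7%). Myocd, the coactivator of the smooth muscle programme, averaged 666 CPM against 34.2 in fibroblasts (5.74, SE 0.67, adjusted p = 5.58e-07), and Heyl fell against pericytes (-10.06, SE 0.97, adjusted p = 2.70e-08). Of the mesenchymal factors 2 were higher and 1 lower than in fibroblasts (10.3%) and 4 lower than in pericytes (13.8%). Of 27 forkhead genes edgeR called 0 against fibroblasts, 4 were under 0.05 unadjusted (17.9% of all genes) and DESeq2 called 0 (7.62% of all genes). Among them 1 was higher and 2 were lower than in pericytes (11.1%, near the share of all genes), with Foxs1 931-fold lower by counts (257 to 7690, adjusted p = 0.00203). Among 30 regional factors 1 was higher than in fibroblasts (3.33%, under the share of all genes), while 1 was higher and 3 were lower than in pericytes (13.3%), with Bnc2 at 235 against 10.5 CPM (4.47, SE 0.45, adjusted p = 5.46e-08).

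The CD34+ comparisons set the CD34+ fibroblasts of the small intestine beside the CD81+ and the CD90+ fibroblasts of the colon, which carry CD34 too. Foxf2 and Nkx2-3 were higher in CD34+ than in CD81+ fibroblasts without overlap, at 1.85 (SE 0.69, adjusted p = 0.317) and 1.09 (adjusted p = 0.444). Twist1 was lower without overlap, 1 count in all against 54, 121 and 267, a ratio of 340 (60.7 to 13500; adjusted p = 0.0957). For Twist1, DESeq2 gave -8.47 (adjusted p = 0.000969), the fit of only these populations -8.09 (adjusted p = 0.0498) and no filter -8.05 (adjusted p = 0.0297), with a range of 0.000969 to 0.403 over all alternatives. By edgeR 0 of 7 members were called, 4 were under 0.05 unadjusted and 1 was called by DESeq2, beside 0.758% of all genes, with 9.52% unadjusted and 2.42% by DESeq2. Without overlap were 3 of 7 members and 23.7% of all genes. Against CD90+ fibroblasts, 5 of 7 members did not overlap, beside 28.2% of all genes: Pitx1, Foxf1 (-0.47), Foxl1 (-3.60, adjusted p = 0.94) and Twist1 (a ratio of 190, 33.8 to 7520; adjusted p = 0.287) were lower in the CD34+ fibroblasts and Nkx2-3 (0.84) was higher. There 0 of 7 members were called by edgeR, 3 were under 0.05 unadjusted and 1 (Twist1, -7.51, adjusted p = 0.011) was called by DESeq2, beside 0.353% of all genes, with 4.53% unadjusted and 1.07% by DESeq2. The fit of only these populations called Twist1 (-7.21, adjusted p = 0.00284), Foxl1 (-3.61, adjusted p = 0.0185) and Pitx1. That fit also called more of all genes than the 62 of the fit of all populations, with its count given under the dependence on processing. Over all alternatives the adjusted p ran from 0.00284 to 1 for Twist1 and from 0.0185 to 1 for Foxl1. The all-gene count against CD81+ fibroblasts, 133, was 73, 73 or 69 without CD34+ replicate 1, 2 or 3. Against CD90+ fibroblasts it was 62, then 38, 39 or 37 without these, and 26 or 32 without CD90+ replicate 1 or 3.

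Within the colon, CD81+ fibroblasts had less Foxf2 (-2.11, SE 0.69, adjusted p = 0.249), Foxl1 (-4.35, adjusted p = 0.356) and Foxf1 (-0.57, adjusted p = 0.857) than CD90+ fibroblasts in 3 of 3 libraries each, without overlap. By edgeR 0 of 7 members were called, 2 were under 0.05 unadjusted and 0 were called by DESeq2, beside 0.621% of all genes, with 9.34% unadjusted and 2.18% by DESeq2. The 3 without overlap stand beside 15.8% of all genes. Between CD90+ and colonic Fgfr2+ fibroblasts the 6 tested members all overlapped, while 12.5% of all genes did not, and Pitx1, described without a test, was lower in CD90+ fibroblasts without overlap. There edgeR called 0 of 6 members and 0% of all genes, 0 members were under 0.05 unadjusted and 0 called by DESeq2, while 569 of all genes were under 0.05 unadjusted and DESeq2 called 37. Within the small intestine, CD34+ fibroblasts had less Foxf2 (-0.70, adjusted p = 0.791) and Foxl1 (-3.22, adjusted p = 0.478) than Fgfr2+ fibroblasts without overlap, while Foxf1 (-1.37, adjusted p = 0.336) and Nkx2-3 (-1.24, adjusted p = 0.288) overlapped. By edgeR 0 of 6 members were called, 2 were under 0.05 unadjusted and 0 were called by DESeq2, beside 1.21% of all genes, with 10.6% unadjusted and 3.39% by DESeq2. Without overlap were 2 of 6 members and 27.9% of all genes. The all-gene count for CD81+ against CD90+ fibroblasts, 109, was 54 or 60 without CD81+ replicate 2 or 3 and 44, 51 or 49 without CD90+ replicate 1, 2 or 3. For CD34+ against Fgfr2+ fibroblasts it was 213, then 126, 136 or 135 without CD34+ replicate 1, 2 or 3 and 132 without Fgfr2+ replicate 1.

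Ebf1, an early B-cell factor gene, and Tbx2, a T-box gene, set apart the CD81+ fibroblasts, where Foxf2 and, in CPM but not in TPM, Foxf1 were lowest. Ebf1 averaged 810 CPM in CD81+ against 29.5 in CD90+ fibroblasts (4.78, SE 0.61, adjusted p = 0.000149) and was lower in the CD34+ fibroblasts (-3.38, SE 0.57, adjusted p = 0.00122). Tbx2 averaged 0.706 CPM in CD81+ fibroblasts against 24.2 in CD90+ (-5.10, SE 0.76, adjusted p = 0.000953) and 18.1 in CD34+ fibroblasts (CD34+ minus CD81+ 4.68, SE 0.75, adjusted p = 0.000771), but neither Tbx2 call held in fits of only the compared populations (adjusted p = 0.0681 and 0.0766). Between CD34+ and Fgfr2+ fibroblasts of the small intestine, Osr1, a regional zinc finger factor, was at 168 against 2.66 CPM (6.01, SE 0.82, adjusted p = 0.000132), and the hedgehog receptor Ptch1 at 600.3 against 2253 CPM (-1.91, SE 0.35, adjusted p = 0.00242).

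The tissue comparisons of PDGFRahi and of Fgfr2+ fibroblasts, which chose Pitx1, called 0.958% and 1.45% of all genes. Of the 30 regional factors, 2 were lower in the small intestine in each, Isl1 and Osr1 both times. Isl1 is given above for its likeness to Pitx1 over these same libraries, so that this count is a description. As a description, Foxf1 and Foxl1 were lower in the small intestinal than in the colonic PDGFRahi fibroblasts without overlap, and Nkx2-3 was higher in the small intestinal than in the colonic Fgfr2+ fibroblasts without overlap, beside 17.3% of all genes without overlap in the PDGFRahi and 16.2% in the Fgfr2+ fibroblasts. Osr1 was lower in small intestinal Fgfr2+ fibroblasts (2.66 against 114 CPM, -5.45, SE 0.80, adjusted p = 0.000138), and Snai2 (7.04 against 124 CPM, -4.14, SE 0.54, adjusted p = 2.84e-05) and Hhip (2.84 against 62.4 CPM, -4.42, SE 0.59, adjusted p = 3.79e-05) were lower in small intestinal PDGFRahi fibroblasts. The all-gene count in PDGFRahi fibroblasts, 168, was 108 without colonic replicate 3 and 110 without small intestinal replicate 1. In Fgfr2+ fibroblasts it was 255, then 162 without small intestinal replicate 1.

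**Figure D4:**
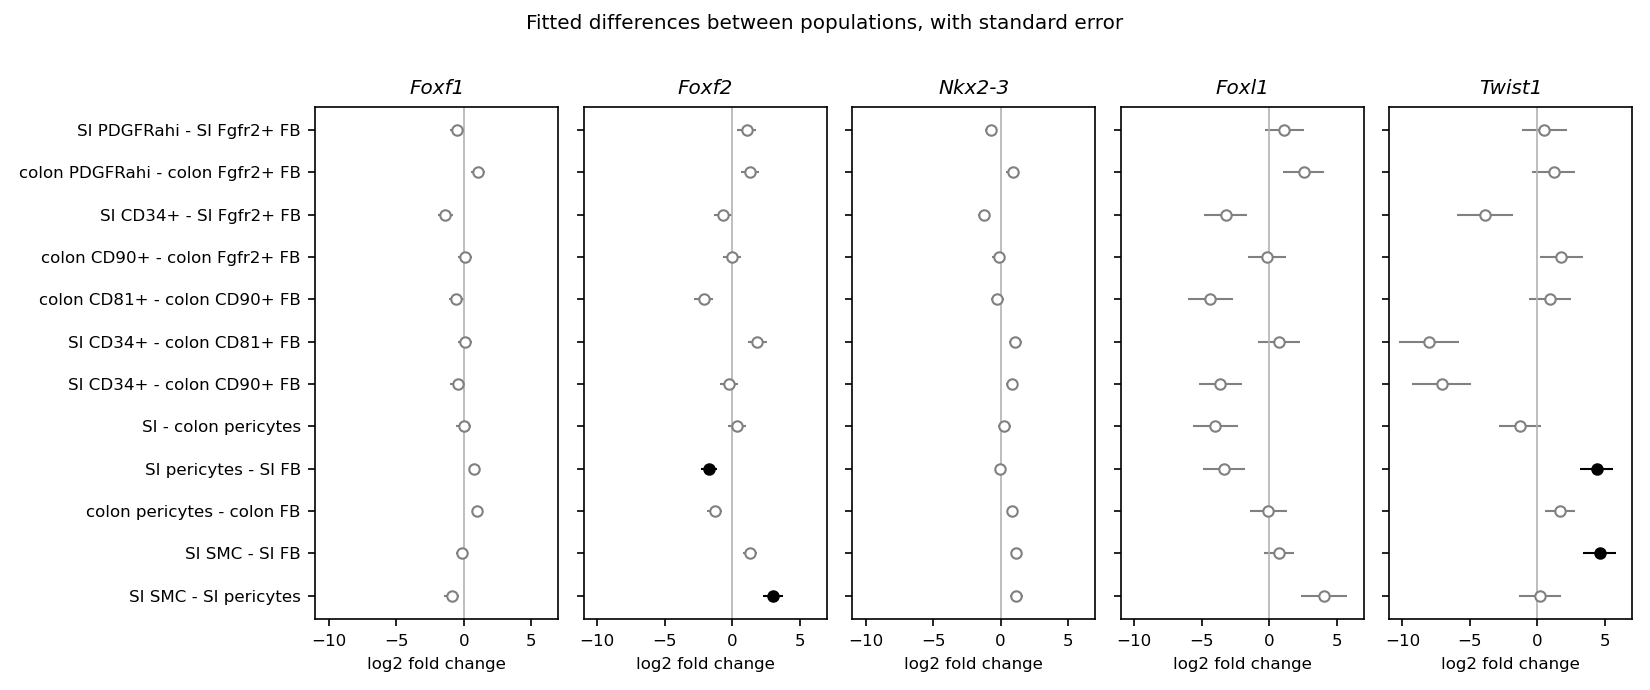
Fitted log2 differences (horizontal axis) with standard errors for Foxf1, Foxf2, Nkx2-3, Foxl1 and Twist1 in 12 comparisons, with filled black points for called values. Foxf2 in smooth muscle cells against pericytes lies at 3.00, and Twist1 in small intestinal pericytes against fibroblasts at 4.39.

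The members did not vary as a block. Over the 30 libraries, which share sort and depth, Pearson's r of log2 CPM was 0.501 for Foxf2 and Foxl1 (0.758 over 10 population means), 0.412 for Foxf2 and Nkx2-3 and 0.105 for the paralogs Foxf1 and Foxf2. Pitx1 and Nkx2-3 were at -0.477, and Foxf2 and Twist1 at -0.397. By Pearson's r over 30 libraries the 7 tested members each had a different gene most like them. Mboat2 was the one for Foxf2 (r 0.857, rho 0.825, r 0.972 over 10 means), followed by Cacng7 (0.813) and Tmem156 (0.804). Mboat2 averaged 19.2 CPM in smooth muscle cells and 0.125 in small intestinal pericytes. Runx1 was the one for Foxf1 (r 0.693, rho 0.728), though not by population means, followed by Tagap1 (0.684) and Gnai2 (0.677), and it was at 186 CPM in colonic PDGFRahi fibroblasts and at 14.8 in CD81+ fibroblasts.

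Foxf1 and Foxl1 lie close together on chromosome 8, with Mthfsd and Foxc2 between them, and Foxf2 lies on chromosome 13 between Foxq1 and Foxc1 (GRCm38). Foxc1, 175230 bases from Foxf2, had an r of -0.436 with it and averaged 59.2 CPM in colonic and 2.72 in small intestinal pericytes and at most 0.326 elsewhere. Foxq1, 64840 bases away on the other side, had an r of 0.594, and was highest in smooth muscle cells at 4.53 CPM and at 0 in both pericyte populations and in CD81+ fibroblasts. Foxl1 (chr8:121127940-121130644) has Foxc2 9045 bases away (r 0.111), and Foxf1 has Mthfsd 3484 bases away (r 0.390). On the other side lie Fbxo31 for Foxl1 (r 0.241) and Irf8 for Foxf1 (r 0.123). Gm20388, which overlaps both, had an r of 0.122 with Foxl1 and -0.15 with Foxf1. Fendrr, the noncoding gene on the other strand just before Foxf1, was not quantified. Twist1 (chr12:33957671-33959829) and Hdac9, 87751 bases away, had an r of 0.535, and Hdac9 averaged 43.5 CPM in small intestinal and 29.0 in colonic pericytes and at most 21.3 elsewhere. Twistnb, on the other side of Twist1, had an r of 0.0494. Pitx1 (chr13:55825051-55836192, minus strand) and Catsper3, 16053 bases away, had an r of 0.475 at low counts of Catsper3, and H2afy on the other side had 0.0401. The neighbours of Nkx2-3 (chr19:43612325-43615892), Got1 and Slc25a28, had -0.0555 and -0.198. Those of Gata6, Mib1 and Rbbp8, had 0.325 and -0.0442. Those of Barx1, Ptpdc1 and Phf2, had -0.166 and 0.153.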

How the data were processed

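The deposited files hold expected counts (estimated counts per transcript), tpm (counts per effective length, scaled to a common sum) and other columns (length and effective length in bases), made by the authors with Trim Galore 0.4.0, FastQC 0.11.2 and kallisto 0.42.5. Of 98492 transcripts, 97116 matched the GENCODE annotation of GRCm38, and counts were summed to 32316 symbols and rounded. edgeR 4.0.16 (R 4.3.3, limma 3.58.1) fitted 10 population means over 30 libraries, with TMM normalisation and quasi-likelihood tests, to the 17542 genes that reached 6 counts in 3 or more libraries. Adjusted p are Benjamini-Hochberg values over all genes tested, two-sided. An exact test of 3 against 3 libraries cannot go below p = 0.1 and was not used. Log2 CPM used a prior count of 2. Alternatives were DESeq2 1.42.0, RLE and upper-quartile scaling, other filters, length-scaled counts, a log2 threshold of 1, a replicate block, fits of only the compared populations, and each library left out.

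The members, the lists (regional, forkhead, mesenchymal, hedgehog, smooth muscle, and markers) and the rule for named genes were chosen with earlier results of these data known. Named by that rule were the members, the 3 genes most like each by Pearson's r, the nearest tested gene on each side, the markers, and, per comparison and direction, up to 4 called list genes of largest change whose populations did not overlap. Python 3.11.15, numpy 2.4.6, pandas 2.3.3 and matplotlib 3.10.9 were used.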

Additional observations from a re-analysis of the deposited data

Results flagged for a closer look

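The effect of subset, PDGFRahi against Fgfr2+ fibroblasts, differed between the tissues in 116 of 17542 genes by the edgeR test of the difference itself. Members made up 0 of them by edgeR, with 1 (Nkx2-3) at an unadjusted p under 0.05 and 0 by DESeq2. The count of 116 was 63 to 97 with each library left out in turn, lowest without colonic PDGFRahi replicate 3 or colonic Fgfr2+ replicate 3.

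On the lists, 4 genes differed between tissues in this way. Zeb2, a repressor, had a log2 difference of differences of -1.83 (SE 0.33), and its adjusted p stayed at or under 0.0334 in every alternative. Zeb1 was at 2.04 (SE 0.43, adjusted p = 0.0174), with an adjusted p of 0.0557 and 0.0755 without colonic PDGFRahi replicates 1 and 2, 0.0555 without small intestinal PDGFRahi replicate 3 and 0.0737 without small intestinal Fgfr2+ replicate 2. Snai2 was at -3.16 (SE 0.68, adjusted p = 0.0207), with 0.0788 and 0.0574 without colonic Fgfr2+ replicates 2 and 3, 0.0742 without colonic PDGFRahi replicate 3, 0.0826 and 0.0757 without small intestinal PDGFRahi replicates 2 and 3, and 0.0502 without small intestinal Fgfr2+ replicate 3. Tshz2, a zinc finger factor, was at 1.96 (SE 0.47, adjusted p = 0.0462), and its adjusted p was above 0.1 without any of the colonic PDGFRahi replicates 1 to 3, colonic Fgfr2+ replicates 2 and 3, small intestinal PDGFRahi replicates 1 and 2 and small intestinal Fgfr2+ replicates 2 and 3.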

How the results depend on the processing

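Counting a result as kept when its call stood, and a called value also its direction, 58 of 65 results for members were kept in fits of only the compared populations, 65 of 70 with DESeq2 and 69 or 70 of 70 under each of the other alternatives. With every library left out in turn, 62 of 70 for members and 46 of 73 for list genes were kept. List genes kept 55 of 71 in fits of only the compared populations, 58 of 73 with length-scaled counts, 69 of 73 with the replicate block and with upper-quartile scaling, and at least 71 of 73 under the remaining alternatives. Of the 15 counts of genes called, 15 stayed within 1.5 times with RLE or upper-quartile scaling, the stricter filter, the log2 threshold of 1, and the replicate block, under which the ratio to the value given ran from 0.727 to 1.05. DESeq2 called 920 and 479 genes between subsets (small intestine, colon), 370 for the tissue difference, 2941 for smooth muscle cells against pericytes, 2407, 829 and 402 between tissues in pericytes, Fgfr2+ and PDGFRahi fibroblasts, 425 and 187 for CD34+ against CD81+ and CD90+, 382 for CD81+ against CD90+, 595 for CD34+ against Fgfr2+ and 37 for CD90+ against Fgfr2+. Fits of only the compared populations, with fewer libraries for the spread, called 481 (subsets, colon), 201 (tissue difference), 390 (smooth muscle against pericytes), 0 (tissues, pericytes; 1003 with all populations in edgeR and 2407 in DESeq2), 406 (tissues, PDGFRahi), 546 (CD34+ against CD90+), 34 (CD81+ against CD90+), 395 (CD34+ against Fgfr2+) and 2 (CD90+ against Fgfr2+). With no filter the counts were 217 for CD34+ against CD81+, 167 for CD81+ against CD90+ and 3 for CD90+ against Fgfr2+, and with length-scaled counts 67 for CD81+ against CD90+. Leaving out each library in turn gave 129 to 162 (subsets, colon), 63 to 97 (tissue difference), 530 to 921 (smooth muscle against fibroblasts), 616 to 1711 (tissues, pericytes), 162 to 221 (tissues, Fgfr2+), 108 to 122 (tissues, PDGFRahi), 69 to 152 (CD34+ against CD81+), 26 to 44 (CD34+ against CD90+), 44 to 155 (CD81+ against CD90+) and 126 to 180 (CD34+ against Fgfr2+). The fitted log2 difference of Twist1 turned negative without smooth muscle replicate 3: it ran from -4.66 to 5.26 against fibroblasts and from -9.02 to 1.37 against pericytes. The smooth muscle libraries left there had 0 counts, so that -4.66 and -9.02 depend on the prior count and give no fold. Other than as stated, the cause was not tested. Upper-quartile scaling shifted the median log2 difference of all genes by 0.15 for CD34+ against CD81+, -0.12 for CD81+ against CD90+ and -0.11 for colonic pericytes against fibroblasts. Counts of Gata6 and Barx1 were too few for a difference to be read. Those of Twist1 in the small intestinal fibroblasts were too few for the size of its differences against them to be read.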
